A study of Rattus norvegicus with 7 samples.

Results

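The mir-181 family was followed through postnatal development of the rat retina. Its members were taken as every miRNA feature of the deposited Wistar WU retina table whose gene symbol begins with Mir181a, Mir181b, Mir181c or Mir181d. This gave 5 loci (Mir181a2, Mir181b2, Mir181b1, Mir181c and Mir181d) of 571 miRNA features and 5491 features in all. The samples were whole retinas of untreated Wistar WU rats at postnatal days 1, 3, 5, 7, 10, 15 and 21 (P1 to P21), the day of birth being P0. At each age the retinas of 3 animals were pooled into 1 small RNA library, which was sequenced 2 times on the Ion Torrent platform. The values are FPKM, by name fragments per kilobase of feature scaled to the mapped fragments of the library, and each age has 1 value. In these values 1 alignment was worth less in a longer feature than its length alone gives, which affects FPKM comparisons between loci. With 1 pool per age the spread between animals is unknown and no test between ages was possible, so the intervals given here cover the error of counting alignments only. In a whole retina, fewer cells of a type and less RNA per cell cannot be told apart.

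A miRNA is cut from the stem of a hairpin transcript, and the 2 strands of the stem can each give a mature form, named 5p and 3p. Bases 2 to 8 of the mature form, the seed, pair with target mRNAs and lower their translation or stability, so miRNAs that share a seed can share targets. In vertebrates the mir-181 genes lie in pairs, each thought to be made as 1 long transcript. In the retina they are known from neurons of the inner layers, amacrine and ganglion cells among them, and from studies of axon growth and of mitochondrial turnover. Whole-retina miRNA values cannot place the signal in a layer, so that description was not tested here.

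The 4 mature 5p forms of the family are shown because they share their seed and differ in a few of the bases that follow it. They were taken from RefSeq (assembly GRCr8), run 5′ to 3′ and have the seed in capitals.
rno-miR-181a-5p: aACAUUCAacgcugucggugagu
rno-miR-181b-5p: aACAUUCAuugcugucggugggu
rno-miR-181c-5p: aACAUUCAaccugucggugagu
rno-miR-181d-5p: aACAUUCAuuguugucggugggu

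All 4 forms carry the seed ACAUUCA, and no other name among the 693 mature rat names in RefSeq carries it. Counted from the 5′ end, miR-181a-5p and miR-181b-5p differ by A9U, C10U and A21G. A single change, C12U, separates miR-181b-5p from miR-181d-5p. The shorter miR-181c-5p, of 22 bases, is 1 edit from miR-181a-5p, of 23 bases, whereas miR-181c-5p and miR-181d-5p are 5 edits apart although their genes are neighbours. How reads that matched several loci were counted is not given in the sources used here, so the split between loci that share a mature form is uncertain.

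The 3p forms are shown because they are the strand by which several of the loci differ most, again with bases 2 to 8 in capitals.
rno-miR-181a-2-3p: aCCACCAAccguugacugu
rno-miR-181b-1-3p: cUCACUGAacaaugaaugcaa
rno-miR-181c-3p: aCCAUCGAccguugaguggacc
rno-miR-181d-3p: cCACCGGGggaugaauguca

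Among these 4 the seeds all differ, so the seed common to the loci is that of the 5p strand. The form miR-181a-1-3p, from a locus without a feature here, shares the 3p seed of miR-181c-3p. No 3p form of Mir181b2 is shown. Each locus has 1 value, over a window that the table lists as 81 to 107 bases long for the 5 loci, so the 5p and 3p forms were not measured apart.

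The 5 loci lie on 3 chromosomes of the build used by the authors, Rnor_6.0. Mir181a2 (ENSRNOG00000035630.1, chr3:23150352-23150468) and Mir181b2 (ENSRNOG00000035563.1, chr3:23151455-23151542) are on the forward strand with 986 bases between them, and in RefSeq both lie within Nr6a1, the gene of an orphan nuclear receptor, and within the lncRNA LOC120101539. Mir181b1 (ENSRNOG00000035590.1, chr13:54952903-54953012, forward strand) lies within the lncRNA LOC108352541. Mir181c (ENSRNOG00000035569.1, chr19:25290211-25290316) and Mir181d (ENSRNOG00000036417.1, chr19:25290051-25290133) are on the reverse strand, 77 bases apart and within no annotated gene. The nearest protein-coding gene to that pair in RefSeq is Nanos3. Mir181a-1, the partner of Mir181b1 in RefSeq, had no feature of its own.

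The hairpins of Mir181c and Mir181d are shown from RefSeq (GRCr8) because these neighbours took different courses over the ages. Capitals mark the mature 5p and 3p forms.
Mir181c: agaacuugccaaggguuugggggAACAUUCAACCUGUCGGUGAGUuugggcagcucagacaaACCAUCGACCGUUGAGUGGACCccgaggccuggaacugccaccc
Mir181d: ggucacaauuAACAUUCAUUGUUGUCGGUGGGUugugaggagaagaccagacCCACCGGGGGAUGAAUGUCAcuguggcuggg

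Estimated from the mean of the FPKM steps that 1 alignment makes in a library, the libraries held 284122 to 1619666 alignments, the deepest being P21. The estimate depends on the step used, and ran from 124188 to 754537 for P15 and from 195844 to 691728 for P10 between the largest and the smallest step. miRNA features took 60.6% to 76.1% of the alignments of 6 libraries and 40.1% of the P3 library, which stands apart in this respect. The 5 loci together were estimated at 2212 alignments at P1 and 4817 to 29537 at the other ages, and with the mean step the counting error of the family sum ranged up to 2.15%, at P1. With the largest step the interval of the family's P15 minus P21 difference widened from -1.11 to -0.99 to between -1.13 and -0.97. Only Mir181d was thinly counted, with 23 to 101 alignments a library.

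Summed over the 5 loci, the family stood at 153488 FPKM on P1, 449619 on P3, 496064 on P5, 492184 on P7, 364602 on P10, 290871 on P15 and 602636 on P21. In these deposited values P1 was the lowest library and P21 the highest, with P3 to P7 close together and another low at P15. P5 was above P3 by 0.14 on the log2 scale (counting interval 0.09 to 0.19). As a share of all miRNA FPKM of the library, the family made up 0.815% on P1, 2.82% on P3, 2.55% on P5, 2.66% on P7, 1.49% on P10, 1.40% on P15 and 2.08% on P21. On this scale P3 was highest, and P21 was below P3, P5 and P7.

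The first step was the steepest. From P1 to P3 the summed level was 2.93-fold higher, a difference of 1.55 in log2(FPKM + 1) with a 95% counting interval of 1.48 to 1.62. All 5 loci were at least 2-fold higher at P3 than at P1, against a background of 15.9% of the 571 miRNA features, and their log2 differences ran from 1.12 for Mir181d to 1.69 for Mir181a2. The 5 of 5 also held with the libraries scaled to the miRNA total, by median of ratios and by TMM, under which the background was 21.0%, 17.3% and 16.1%. For Mir181d the count rests on the point value. Its counting interval reached below a 2-fold difference, at 0.59 to 1.65 as deposited, and did so under the 3 scalings too. The P3 library is also the one with the low miRNA share. It also held the highest level of the muscle miRNAs Mir206, Mir133b and Mir1b, whose sum was 165251 FPKM at P3 and 100176 at P5 against 4840 to 11665 at the other ages. The part of these differences between the pools in the P1 to P3 step was not tested.

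Between P5 and P7 the family did not differ beyond counting error in deposited FPKM (log2 difference -0.011, interval -0.055 to 0.032). Under the scalings P7 was above P5. Relative to P21 on the log2 scale, P5 and P7 stood at -0.41 and -0.04 by median of ratios and -0.39 and 0.05 by TMM. Scaled to the miRNA total they stood at 0.30 and 0.36. The level was then lower at P10 and P15. P15 stood 0.76 below P7 on the log2 scale (interval -0.82 to -0.69 for P15 minus P7), and all 5 loci were lower at P15 than at P7, as were 50.6% of all miRNA features. Of the 5, Mir181c and Mir181d were at least 2-fold lower, where 31.5% of all miRNA features were. P10 and P15 lay below P3, P5, P7 and P21 in the family sum under the deposited values and all 3 scalings.

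From P15 to P21 the sum was 2.07-fold higher (log2 difference 1.05, interval 0.99 to 1.11). Mir181b1 and Mir181b2 were at least 2-fold higher over this step, beside 32.4% of all miRNA features, and scaled to the miRNA total or by TMM none of the 5 loci was. Whether P21 was the highest age also depended on the scaling. It was under the deposited values and median of ratios, whereas P3 was highest when scaled to the miRNA total and P7 under TMM. P1 was the lowest age under all 4.

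**Figure D1:**
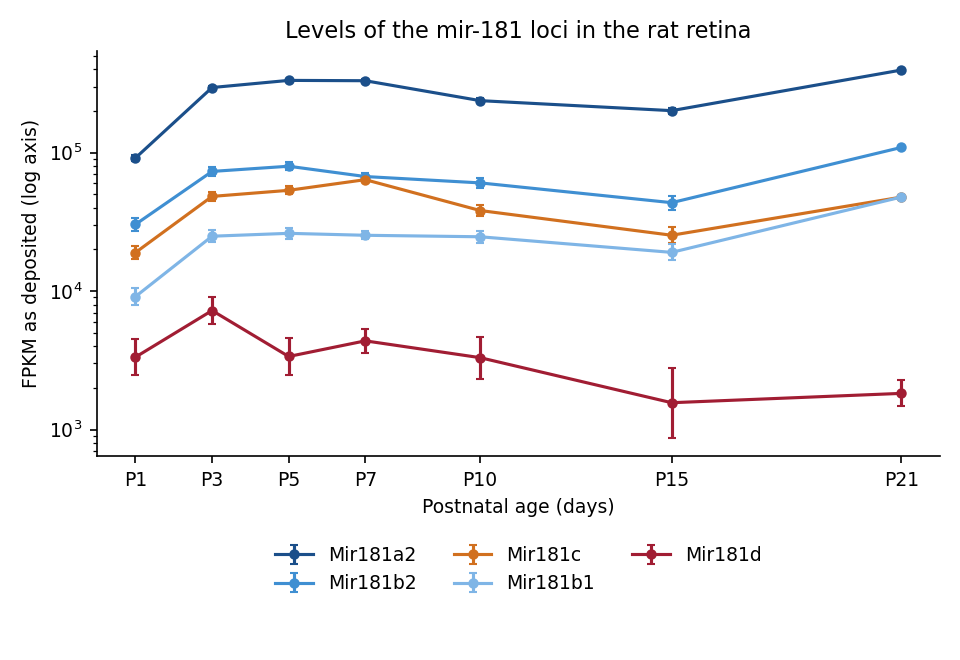
FPKM of the 5 mir-181 loci (vertical axis, log scale) in the 1 pooled library at each age (horizontal axis, postnatal day). Bars are 95% counting intervals. 4 loci were lowest at P1, whereas Mir181d was lowest at P15 and highest at P3.

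**Figure D2:**
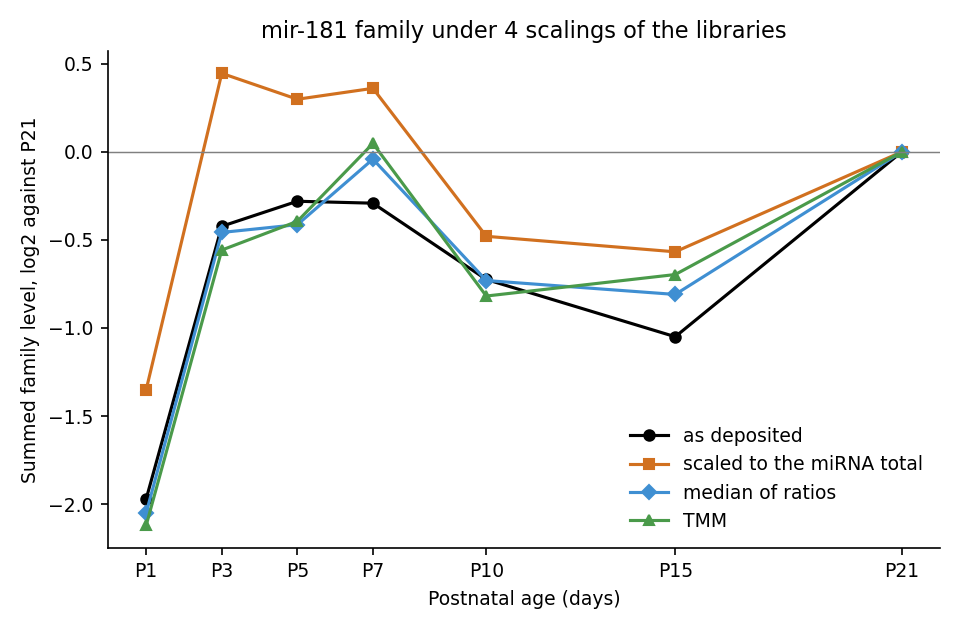
The summed mir-181 level at each age relative to P21 on the log2 scale (vertical axis) under the deposited FPKM and the 3 scalings of the libraries, against postnatal day. P1 was lowest under all 4, and P3, P5 and P7 lay above P21 when scaled to the miRNA total.

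The feature of Mir181a2, a source of miR-181a, held most of the signal. Mir181a-1, which had no feature of its own, gives the same miR-181a-5p. The part of its reads in the Mir181a2 values was not tested. The level of Mir181a2 was 91688 FPKM on P1, 295836 on P3, 333186 on P5, 331330 on P7, 237842 on P10, 201361 on P15 and 395908 on P21. By mean FPKM it ranked 16 among the 571 miRNA features, and it held 60.0% to 68.9% of the family's alignments at every age. P21 was 4.32-fold above P1 (log2 difference 2.11, interval 2.03 to 2.19), a signed difference above that of 82.1% of all miRNA features.

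Mir181b2, its neighbour on chromosome 3, had the next highest mean level. It stood at 30340 FPKM on P1, 73266 on P3, 79862 on P5, 67281 on P7, 60534 on P10, 43563 on P15 and 109242 on P21. The order of ages was the same as for Mir181a2 at both ends, with P1 lowest and P21 highest, and P21 was 3.60-fold above P1 (log2 difference 1.85, interval 1.69 to 2.01). The values of the 2 neighbours were not in a fixed proportion. Mir181a2 was 3.02 times Mir181b2 at P1 and 4.04 times at P3, a change of 0.42 in the log2 ratio (interval 0.21 to 0.62), and the ratio was highest at P7, at 4.93. The form miR-181a-5p also comes from Mir181a-1 and miR-181b-5p from Mir181b1, so this is a change in the values assigned to the features. The part of shared reads in it was not tested.

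Mir181b1 on chromosome 13, which like Mir181b2 is a source of miR-181b, was lower. It was measured at 9132 FPKM on P1, 24931 on P3, 26153 on P5, 25317 on P7, 24700 on P10, 19052 on P15 and 47853 on P21. Of the 5 loci it had the greatest P21 to P1 difference, 5.24-fold (log2 2.39, interval 2.17 to 2.6). From P3 to P10 its deposited values did not differ beyond counting error. Relative to P21 on the log2 scale, TMM put P7 at -0.58, above P3 at -1.08 and P10 at -1.05. Scaled to the miRNA total, P3 stood at -0.07 and P10 at -0.71. The ratio of Mir181b2 to Mir181b1 was 3.32 on P1, 2.94 on P3, 3.05 on P5, 2.66 on P7, 2.45 on P10, 2.29 on P15 and 2.28 on P21. From P1 to P21 the log2 ratio changed by -0.54 (interval -0.81 to -0.27). Both loci give miR-181b-5p, so this is a change in the values assigned to the features, and the part of shared reads in it was not tested.

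Mir181c on chromosome 19 took another course. It was measured at 18995 FPKM on P1, 48346 on P3, 53494 on P5, 63884 on P7, 38222 on P10, 25333 on P15 and 47809 on P21. P7 was its highest age under the deposited values and under all 3 scalings, and P15 was 2.52-fold below P7 (log2 difference -1.33, interval -1.53 to -1.14). P21 was 2.52-fold above P1 (log2 1.33, interval 1.16 to 1.5). At P7 Mir181c and Mir181b2 did not differ beyond counting error, with an FPKM ratio of Mir181b2 to Mir181c of 1.05 (interval 0.98 to 1.13), and at the other 6 ages Mir181b2 was higher in FPKM. In estimated alignments, which are not divided by feature length, Mir181c had 1.38 times as many as Mir181b2 at P7. At P21 Mir181c and Mir181b1 did not differ beyond counting error in FPKM, with a ratio of 0.999 (interval 0.949 to 1.05), where in alignments Mir181b1 had 1.22 times as many, and at the other 6 ages Mir181c was higher in FPKM.

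Mir181d, which lies directly beside Mir181c, was the least abundant of the 5 loci at every age. Its level was 3335 FPKM on P1, 7240 on P3, 3370 on P5, 4372 on P7, 3304 on P10, 1562 on P15 and 1824 on P21, from an estimated 44, 91, 47, 101, 45, 23 and 81 alignments. The highest value was at P3 and the lowest at P15, and P1, P5 and P10 lay close together. P21 was 0.87 below P1 on the log2 scale (interval -1.40 to -0.34 for P21 minus P1), while the other 4 loci were at least 2-fold lower at P1 than at P21, against a background of 31.5% of miRNA features. Scaled to the miRNA total, Mir181c no longer passed 2-fold, with a P21 minus P1 difference of 0.71 (interval 0.54 to 0.88). Mir181d remained lower at P21 than at P1 when the libraries were scaled to the miRNA total, by median of ratios and by TMM, with log2 differences of -1.49, -0.79 and -0.73. Its lowest age moved to P21 under each of these scalings, and the P21 minus P15 difference of 0.22 had an interval of -0.67 to 1.12.

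The ratio of Mir181c to Mir181d needs no scaling of the libraries, since both loci are read in the same one. In FPKM it was 5.70 on P1, 6.68 on P3, 15.9 on P5, 14.6 on P7, 11.6 on P10, 16.2 on P15 and 26.2 on P21. The intervals at P1, 4.16 to 7.81, and at P21, 21.0 to 32.7, did not overlap, and the log2 ratio changed by 2.2 between these ages (interval 1.65 to 2.76). Much of the change lay between P3 and P5, where the log2 ratio changed by 1.25 (interval 0.69 to 1.81). Over that step Mir181d was 1.10 lower on the log2 scale (interval -1.64 to -0.57) and Mir181c was 0.15 higher (interval -0.0003 to 0.29). Mir181d was the only one of the 5 loci at least 2-fold lower at P5 than at P3, where 12.1% of miRNA features were. As a share of the family's alignments, Mir181d went from 1.99% at P1 to 0.275% at P21.

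**Figure D3:**
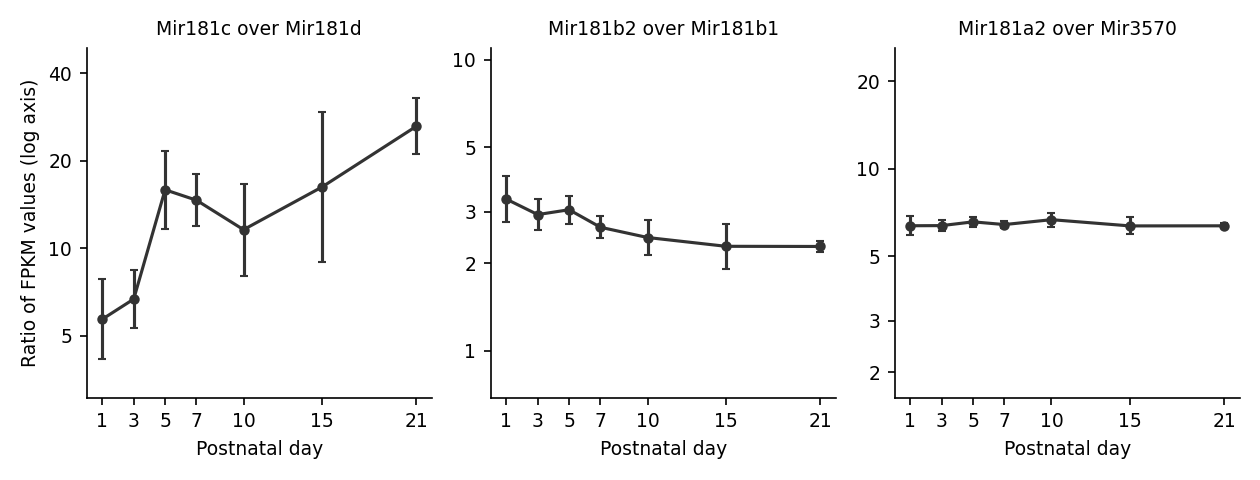
FPKM ratios of Mir181c to Mir181d, Mir181b2 to Mir181b1 and Mir181a2 to Mir3570, 1 panel each (vertical axis, log scale) in the pooled library of each age (horizontal axis, postnatal day), with 95% counting intervals as bars. The ratio of Mir181c to Mir181d was 5.70 at P1 and 26.2 at P21, whereas that of Mir181a2 to Mir3570 stayed between 6.36 and 6.69.

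Mir181d, a small part of the family sum, did not follow it. Pearson's r of log2(FPKM + 1) with the sum over the 7 ages was 0.998 for Mir181a2, 0.967 for Mir181b2, 0.949 for Mir181b1 and 0.924 for Mir181c, and 0.088 for Mir181d. Between Mir181c and Mir181d r was 0.38, and between the neighbours Mir181a2 and Mir181b2 it was 0.95. These values are a description over 7 libraries that all loci share, and each locus is itself part of the sum.

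Among 498 other miRNA features with a mean of at least 100 FPKM and a value above 0 at every age, the 5 whose course was most like the family sum were Mir3570 (r = 0.997), AC096430.1 (0.965), Mir337 (0.960), Mir495 (0.954) and AABR07064716.2 (0.943). By rank correlation Mir3570, AC096430.1 and Mir337 were tied at 0.964. The cut for the 5 most alike fell within this tie, so which 2 of these 5 stayed was set by order alone. Scaled to the miRNA total, 4 of these 5 stayed. Mir337 and Mir495 belong to the large imprinted miRNA cluster of the Dlk1-Dio3 region. Mir495 stood at 8220 FPKM on P1, 24808 on P3, 32220 on P5, 27777 on P7, 20847 on P10, 22059 on P15 and 29963 on P21. AC096430.1 rests on an estimated 2 alignments at P1, so its low start is within the floor of 3 alignments used here.

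Mir3570 is not a family member by name, but it overlaps one. It is listed at chr13:54952723-54952839 on the reverse strand (ENSRNOG00000035494.2), 63 bases from Mir181b1, and in GRCr8 it lies antisense across Mir181a-1, the locus that had no feature of its own. Its hairpin is shown as the reverse complement because that strand holds miR-181a-5p and miR-181a-1-3p whole, marked in capitals. The hairpin of Mir181a2 is given beside it, with its own mature forms in capitals.
Mir3570, reverse complement: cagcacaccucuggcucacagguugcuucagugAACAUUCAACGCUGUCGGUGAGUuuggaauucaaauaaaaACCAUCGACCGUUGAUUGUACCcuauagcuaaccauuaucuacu
Mir181a2: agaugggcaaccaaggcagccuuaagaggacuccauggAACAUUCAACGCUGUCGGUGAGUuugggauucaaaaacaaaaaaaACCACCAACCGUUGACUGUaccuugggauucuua

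The 22 bases of mature rno-miR-3570 are the exact reverse complement of miR-181a-1-3p. Mir3570 stood at 14390 FPKM on P1, 46386 on P3, 50706 on P5, 51519 on P7, 35579 on P10, 31645 on P15 and 62173 on P21. The ratio of Mir181a2 to Mir3570 stayed between 6.36 and 6.69 in FPKM at all 7 ages, and from P1 to P21 its log2 value changed by -0.0008 (interval -0.11 to 0.11). In estimated alignments Mir3570 had 1.02 to 1.07 times as many as Mir181a2. Its feature is listed with a window of 276 bases, against 91 for Mir181a2, while the gene spans 117. At P1 the ratio of Mir181a2 to Mir3570 was 6.37 in FPKM and 0.936 in alignments, further apart than these windows alone give. Whether reads were assigned by strand is not given in the sources used here, so reads of miR-181a and of an antisense miR-3570 cannot be told apart at this feature. Adding Mir3570 to the family sum, a choice made after seeing the data, gave a P1 minus P21 difference of -1.99 against -1.97 without it.

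**Figure D4:**
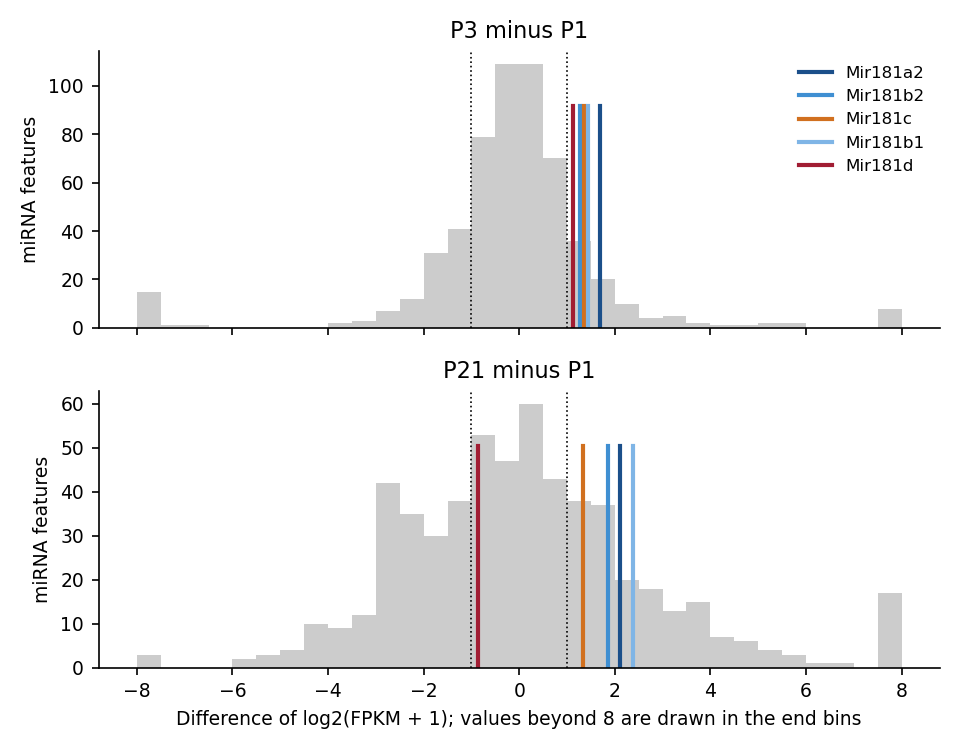
Number of miRNA features (vertical axis) by log2 difference in FPKM + 1 (horizontal axis) for P3 minus P1 and P21 minus P1, over all 571 miRNA features, values beyond the axis being drawn in the end bins. Coloured lines mark the 5 mir-181 loci and dotted lines a 2-fold difference. At P3 against P1 all 5 lay above a 2-fold difference, and at P21 against P1 Mir181d lay on the other side of 0 from the other 4.

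The libraries also changed in miRNAs that mark cell classes, and these are given as the setting of the family's values. Of 14 loci of neuronal miRNAs, 10 were at least 2-fold higher and 0 at least 2-fold lower at P21 than at P1, beside 31.5% and 32.9% of all miRNA features, and their median log2 difference was 3.18 against -0.05 for all. The 3 loci of Mir124, the most abundant neuronal miRNA, differed by 3.52 to 3.56, and the list's sum was lowest at P1, at 1092630 FPKM, and highest at P21, at 12174700. Most of that sum was Mir124, whose 3 loci stood at 3220000, 3250000 and 2060000 of 8691320 FPKM at P15. Loci of 1 name can share reads, and how such reads were counted is not given. The 14 loci are therefore not 14 separate measurements, and the sum may hold some reads more than once. The other loci of the list went both ways from P10 to P15. In deposited FPKM the neuronal sum was higher at P15 than at P10 and at P7, where the mir-181 sum was lower at P15 than at both. Under TMM the mir-181 sum, too, was higher at P15 than at P10 (-0.70 and -0.82 relative to P21 on the log2 scale). The photoreceptor miRNAs Mir183 and Mir96 were highest at P10 in sum, with 1015630 FPKM against 117463 at P1, an age at which the mir-181 sum was below P7.

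The pigment epithelium miRNAs Mir204 and Mir211 were both at least 2-fold higher at P21 than at P1, their sum being 87709 FPKM at P1 and 483914 at P21. Of the vessel miRNAs Mir145, Mir126a and Mir143, 1 of 3 was at least 2-fold higher at P21, and the sum ran from 21511 FPKM at P7 to 132175 at P21. Of 5 blood miRNAs, Mir451a the most abundant, 1 was at least 2-fold higher and 2 at least 2-fold lower at P21, and the sum ran from 6172 FPKM at P3 to 20757 at P1. Of 3 muscle miRNAs, 0 were higher by that measure and 1, Mir206, was lower. Over all miRNA features 31.5% were at least 2-fold higher and 32.9% at least 2-fold lower at P21 than at P1. Beside these shares the vessel, blood and muscle counts do not stand out, but they compare P1 and P21 only. The muscle sum was 7439 FPKM at P1, 165251 at P3, 100176 at P5 and 5702 at P21. The part of these tissues or cells in the course of the mir-181 family was not tested.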

How the data were processed

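Small RNA of pooled retinas, 1 library per age, was measured. Per the study's methods the authors trimmed Ion Torrent reads, aligned them with Torrent Suite to the noncoding RNAs of Ensembl, and quantified features with Cufflinks, Cuffmerge and Cuffdiff (version 2.2.1.3 and build Rnor_6.0 per the submitters' processing notes), and they deposited FPKM values for 21 pairs of ages. Their fold changes, test statistics, p-values and q-values were not used. The members, marker lists and tests were chosen with earlier results of these data known. Mir-9 is not reported here.

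Differences between ages were taken on the log2(FPKM + 1) scale with P21, the study's reference, or P1 as the base, with a 2-fold difference counted. Because the values are FPKM from 1 library per age, no count test was run. Low FPKM values are whole multiples of what 1 alignment is worth: at P1, 99.8% of 4872 values under 200 were whole within 0.01, and in the other libraries 99.7% to 100% of low values (under 4 times the P1 step) were sums of 2 or 3 such steps within 0.003 of that step. At P21, whose 3 steps lie close together, 57.3% of all positions in that range are as near to a sum, so its share says little, against 1.42% to 4.42% in the others. From their mean step the alignments and 95% counting intervals were estimated, which assumes that each step carried equal signal. The procedure was tested on simulated data, where the steps of 5 of 5 libraries were recovered and the intervals held 93.5% to 96.0% of true values. The simulated steps carried equal signal, so that assumption was not tested, and features low at P1 were not scored. The genes named are all members, the 5 miRNAs most correlated with the family sum (mean at least 100 FPKM, above 0 at every age), and up to 4 genes per marker list by mean level. Alternatives were scaling to the miRNA total, median of ratios and TMM (trimming 30% of ratios and 5% of levels), pseudocounts of 0.1 and 10, the mean of all ages as reference, leaving out each age, the mean over loci, loci of 1 mature name together, filters of the background and rank correlation. Python 3.11.15, numpy 2.4.6, pandas 2.3.3, scipy 1.17.1 and matplotlib 3.10.9 were used.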

Additional observations from a re-analysis of the deposited data

How the results depend on the processing

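The summed family level on the log2 scale relative to P21, as deposited, was -1.97 on P1, -0.42 on P3, -0.28 on P5, -0.29 on P7, -0.73 on P10 and -1.05 on P15. Scaled to the miRNA total these became -1.35, 0.44, 0.30, 0.36, -0.48 and -0.57, so P3, P5 and P7 turned from below to above P21. By median of ratios P1, P5, P7 and P15 moved to -2.05, -0.41, -0.042 and -0.81, and by TMM the 6 ages stood at -2.12, -0.56, -0.39, 0.047, -0.82 and -0.70, P7 turning above P21. Against the mean of all ages they were -1.29, 0.26, 0.40, 0.39, -0.047 and -0.37, which follows from the lower reference. Scaling to the miRNA total multiplies every miRNA of a library alike and shifted P1 by 0.625 and P3 by 0.867 against P21. That total was 18833530 FPKM at P1 and 29048020 at P21. The neuronal list, mostly Mir124, held 1092630 and 12174700 of it, so this scaling depends on a few abundant loci. By median of ratios P1 shifted by -0.077 and by TMM by -0.145. The part of Mir124 in the shift was not tested. The P1 minus P21 difference of Mir181a2 with Mir181b2 was -2.05 as deposited, -1.42 scaled to the miRNA total, -2.13 by median of ratios and -2.19 by TMM. That of Mir181b1 was -2.39 and became -1.76 scaled to the miRNA total, and that of Mir181c with Mir181d was -1.15 and became -0.53. As the mean of the log2 values of Mir181c and Mir181d it was -0.23, since Mir181d then weighs as much as Mir181c. The highest day was 21, or day 3 scaled to the miRNA total and day 7 by TMM. With single libraries left out it ranged from day 5 (without P21) to day 21, and the lowest day from day 1 to day 15 (without P1). Of the 5 miRNAs most like the family, 2 stayed among the 5 by rank correlation, a count that ties at the cut make uncertain. 60 other alternatives of the main results stayed within the counting error or within 1.5 times the count, while 26 moved and 7 changed sign. Those 60 include all pseudocounts, the sums with Mir3570 and most left-out libraries. These could hardly move the values, so the count of 60 is no measure of robustness.

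No paired analysis was possible because each age is 1 pooled library. The depth limits Mir181d most, whose counting error was 10.1% to 29.6%. Intervals from the largest step of each library, added after seeing the data, widened that of the Mir181c to Mir181d change from P3 to P5 to between 0.61 and 1.89. The steps under each scaling were also added after seeing the data. Variation between animals is not known at any age.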
